A study of Mus musculus with 6 samples.

Results

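The acyl-CoA thioesterase (Acot) family was followed in the livers of obese mice that had undergone either vertical sleeve gastrectomy (VSG), which takes away a large part of the stomach, or sham surgery. The family was taken as 10 genes chosen by name (Acot1, Acot2, Acot3, Acot4, Acot5, Acot6, Acot7, Acot8, Acot12 and Acot13) out of 55385 genes in the table. All 10 were in the table, and 9 had enough reads to be fitted. The family was put forward because its members had been seen to differ between these same livers, so every VSG-sham difference of a member is given below as a description. No p-value of a member is printed, and calls of members at an adjusted p under 0.05 describe the same values and are no independent evidence.

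The samples were livers of 3 sham-operated mice (sham replicates 1 to 3) and 3 VSG-operated mice (VSG replicates 4 to 6), with 1 animal per library. All 6 were male mice on a high-fat diet. Per the labels they started the diet at 6 to 8 weeks of age, ate it for 10 weeks, were operated on, and stayed on it for 12 more weeks, and the methods of the study give wild-type C57BL/6 as the strain of its mice. No lean or unoperated group is in the comparison, and whether the animals were fed or fasted at collection is not stated. Whole liver was sequenced, so a lower level can mean fewer cells that express a gene or less RNA in each of those cells, and these cannot be told apart.

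Acyl-CoA thioesterases split an acyl-CoA into a free fatty acid and coenzyme A. They work against the acyl-CoA synthetases, which make acyl-CoA from free fatty acids, and so they set how much activated fatty acid and how much free coenzyme A each compartment of the cell holds. Acot1 to Acot6 form the type I group, which share an alpha/beta-hydrolase fold and differ in the place where they act: Acot1 in the cytosol, Acot2 in mitochondria, and Acot3 to Acot6 in peroxisomes. Acot7, Acot8, Acot12 and Acot13 are type II enzymes with hotdog-fold domains. In liver, several type I genes are well known targets of PPARα, the nuclear receptor that fatty acids switch on during fasting.

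The type I genes lie close together on the plus strand of chromosome 12, in the order Acot2, Acot1, Acot4, Acot3, Acot5 and Acot6, over 123.5 kb (chr12:83987861-84111349, GRCm38, the assembly also called mm10), a span that holds 4 other annotated genes. The other members are scattered: Acot7 at chr4:152178134-152271855 (plus strand), Acot8 at chr2:164792765-164804882 (minus strand), Acot12 at chr13:91741512-91786148 (plus strand) and Acot13 at chr13:24817948-24831540 (minus strand). All 10 are annotated as protein-coding genes. Acot1 to Acot6 are close copies of each other, which bears on how reads are assigned to them. Over the aligned coding sequence, Acot1 and Acot2 were 95.3% identical, and the other pairs ran from 74.6% to 85.8%. Of 1227 coding positions present in all 6 genes, 715 (58.3%) had the same base in every copy, and the longest stretch without any difference was 66 bases. A 60-base window inside that stretch is shown first, because no read that falls within it can tell the 6 genes apart. It is given by its place in Acot1 and reads the same in all 6.
Acot1 to Acot6, chr12:84009704-84009763: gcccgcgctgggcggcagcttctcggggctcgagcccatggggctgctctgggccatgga

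The 60-base coding window in which the copies differ the most is shown next, because reads from it do separate most of the genes. Capitals mark bases that differ from Acot1. In this window Acot2 differed from Acot1 at 2 bases, against 27 in Acot3, 35 in Acot4, 29 in Acot5 and 36 in Acot6. It is the window with the fewest bases alike in every copy (12 of 60) and was not chosen to separate Acot1 from Acot2. Over the aligned coding sequence that pair was identical at 1178 of 1236 bases.
Acot1, chr12:84016888-84016947: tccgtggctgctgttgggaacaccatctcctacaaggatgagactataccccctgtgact
Acot2, chr12:83992610-83992669: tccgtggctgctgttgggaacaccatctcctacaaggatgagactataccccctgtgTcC
Acot3, chr12:84058529-84058588: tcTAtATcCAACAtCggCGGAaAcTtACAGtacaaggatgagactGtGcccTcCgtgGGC
Acot4, chr12:84043299-84043358: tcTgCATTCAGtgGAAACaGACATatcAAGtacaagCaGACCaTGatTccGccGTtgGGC
Acot5, chr12:84075412-84075471: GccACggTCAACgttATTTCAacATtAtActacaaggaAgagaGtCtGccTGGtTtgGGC
Acot6, chr12:84109051-84109110: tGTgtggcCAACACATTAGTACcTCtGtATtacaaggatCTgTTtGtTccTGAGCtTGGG

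**Figure D1:**
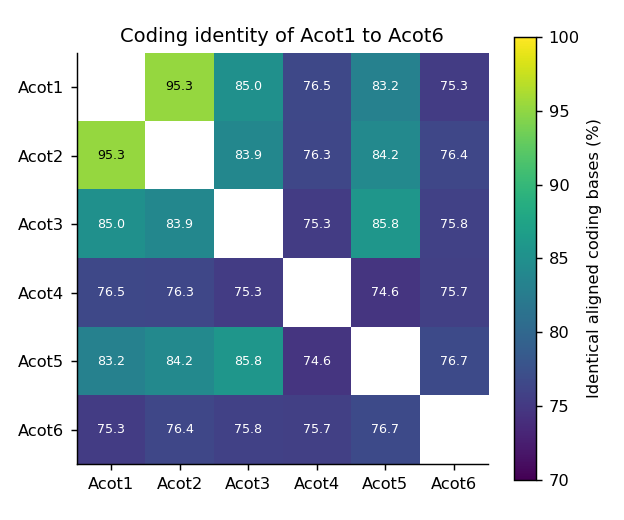
Percent of aligned coding bases that are identical between each pair of the 6 chromosome 12 genes (both axes list the genes; colour and number give the percent). Acot1 and Acot2 stand apart at 95.3%, and no other pair is above 85.8%.

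Shared words were counted over all exons, untranslated parts included, and not over coding sequence alone. Among all words of 50 bases in a gene's exons, 18.4% of those of Acot1 and 27.6% of those of Acot2 also occurred in another member. The share was 22.1% in Acot5, 7.57% in Acot3, 4.17% in Acot4 and 3.52% in Acot6, and it was 0 in Acot7, Acot8, Acot12 and Acot13. How the authors treated reads that fit several genes is not given in the sources used here. Counting words found in any annotated gene, inside or outside the family, the share was 19.2% in Acot1, 27.7% in Acot2, 22.1% in Acot5 and also 19.1% in Acot3, whose exons overlap those of Gm49366. Because reads may be split among copies, the 6 neighbouring genes were also summed into 1 value.

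The sequence upstream of the start sites is shown for 4 members because it differs in how closely it matches the direct repeat of AGGTCA with a gap of 1 base of any kind between the copies, which receptor pairs containing PPARα and RXRα are known to bind. The promoter entries are those of RefSeq for GRCm38.p6. They were matched by symbol for 8 of the 10 members, and Acot6 and Acot13 had none. Both strands of the 250 bases before each start were searched for the stretch with the most matching letters out of the 12 fixed ones, and capitals mark that stretch. Acot2 and Acot3 were members with a large VSG-sham difference, Acot4 was the most abundant type I gene, and Acot12 was the most abundant member in VSG livers.
Acot2, chr12:83987611-83987860: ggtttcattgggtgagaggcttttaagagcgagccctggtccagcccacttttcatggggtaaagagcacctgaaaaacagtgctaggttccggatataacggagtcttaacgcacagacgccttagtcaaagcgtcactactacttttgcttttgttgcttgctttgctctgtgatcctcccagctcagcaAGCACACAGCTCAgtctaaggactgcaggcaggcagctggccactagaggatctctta
Acot3, chr12:84051894-84052143: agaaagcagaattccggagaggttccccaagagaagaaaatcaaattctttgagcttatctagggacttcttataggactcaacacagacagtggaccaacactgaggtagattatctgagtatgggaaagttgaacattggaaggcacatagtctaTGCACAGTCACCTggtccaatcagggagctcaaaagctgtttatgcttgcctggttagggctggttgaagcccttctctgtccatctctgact
Acot4, chr12:84038129-84038378: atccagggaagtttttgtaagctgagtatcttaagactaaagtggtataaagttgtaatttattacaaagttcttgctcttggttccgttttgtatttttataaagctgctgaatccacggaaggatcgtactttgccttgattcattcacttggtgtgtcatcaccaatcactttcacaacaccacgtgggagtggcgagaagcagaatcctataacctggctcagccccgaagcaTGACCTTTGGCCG
Acot12, chr13:91741271-91741511: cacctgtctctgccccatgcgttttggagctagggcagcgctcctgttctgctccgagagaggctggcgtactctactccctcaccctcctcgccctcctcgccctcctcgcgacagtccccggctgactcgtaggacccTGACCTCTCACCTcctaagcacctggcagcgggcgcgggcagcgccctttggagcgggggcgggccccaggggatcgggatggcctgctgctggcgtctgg

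The best stretch matched 11 of 12 letters in Acot12 and 10 of 12 in Acot4, both on the minus strand, beginning 110 and 13 bases before the start site. It matched 9 letters in Acot2 and Acot5, 8 in Acot1 and Acot3, and 7 in Acot7 and Acot8. The RefSeq start used for Acot7 lies inside the gene as placed above, so its window is not upstream of that gene. Of 32851 promoters of the same length, 3.24% had a stretch with 10 or more letters and 0.484% had one with 11 or more. A match is a description of these letters, and no match in this window says nothing about the receptor.

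Sequencing depth was close to even. Total counts ran from 22804397 to 24191778 per library, and 14454 genes passed the filter on low counts. Of these, 14.7% had an adjusted p under 0.05 between VSG and sham (edgeR's quasi-likelihood test, Benjamini-Hochberg adjustment over all genes), with 7.87% lower and 6.79% higher in VSG. At an unadjusted p under 0.05 the shares were 17.0% lower and 16.9% higher, and DESeq2 with adjustment called 12.3% lower and 10.5% higher. The median log2 fold change of all tested genes was 0.03. Hepatocyte markers were abundant in every library (summed level 77900 to 115400 CPM, counts scaled to library size, in sham and 75250 to 103800 CPM in VSG), and none of these markers was at 0.

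All 9 fitted members had lower fitted levels in VSG than in sham livers. Their log2 fold changes ran from -5.64 (Acot3) to -0.60 (Acot8), with a median of -1.07. Of the 9, 6 were called lower at an adjusted p under 0.05 (Acot2, Acot3, Acot4, Acot6, Acot7 and Acot13), beside 7.87% of all tested genes, and the other three (Acot1, Acot8 and Acot12) were not called. The 3 sham values lay above the 3 VSG values in 8 of 9 members, beside 19.8% of all tested genes. In the order of all 14454 genes from the deepest fall upward, Acot3 was at place 17, Acot2 at 68, Acot4 at 99 and Acot1 at 120. These counts and places use the values for which the family was put forward and are not evidence for it.

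**Figure D2:**
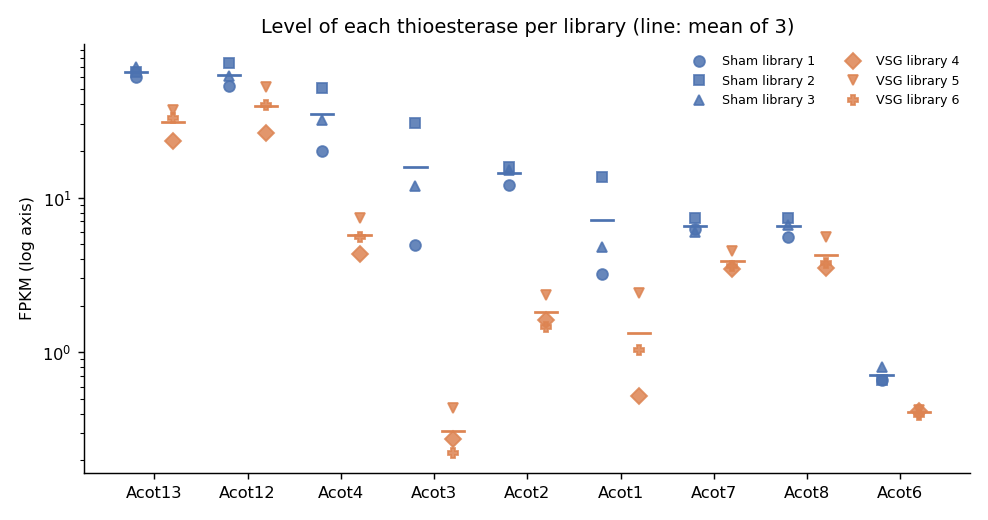
FPKM (log axis) of 9 members in each of the 6 libraries, sham in blue and VSG in orange, with a line at the mean of 3. The mean of Acot3 goes from 15.7 in sham to 0.311 in VSG, below Acot6, while Acot12 and Acot13 stay the most abundant members in both groups. Acot5 is left out because it had no count in VSG.

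Acot3, a peroxisomal thioesterase of long-chain acyl-CoAs, had the deepest fall of the family. Its counts were 461, 2282 and 1082 in sham replicates 1, 2 and 3 and 21, 35 and 16 in VSG replicates 4, 5 and 6. The lowest sham library was thus still far above the highest VSG library, although the sham libraries differed widely among themselves. The level was 54.1 ± 45.0 CPM (SD, n = 3) after sham surgery against 1.07 ± 0.380 CPM after VSG, a log2 fold change of -5.64 (SE 0.77). Without sham replicate 2, the library with the highest value, the log2 fold change was -4.75.

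Acot2 is the mitochondrial member, which releases free fatty acids inside the matrix where they are oxidised. It had 721, 759 and 868 counts after sham surgery against 79, 121 and 67 counts after VSG. Of the cluster genes that were called it had the steadiest values beside a large difference: 31.4 ± 4.24 CPM after sham surgery against 3.98 ± 1.05 CPM after VSG, a log2 fold change of -2.98 (SE 0.21). It was the only member called at an adjusted p under 0.05 in each of the 6 fits that left out 1 library.

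Acot4, a peroxisomal enzyme known for acting on succinyl-CoA and other dicarboxylyl-CoAs, was the most abundant type I gene. Its level was 133, 343 and 213 CPM after sham surgery against 28.7, 49.3 and 37.2 CPM after VSG. The groups did not overlap, and the log2 fold change was -2.58 (SE 0.38), or 5.98-fold lower. Its exons overlap those of Gm49366 on the same strand, which had 0 counts, and of the antisense gene 4732463B04Rik, which had 31 counts over all libraries. The same holds for its neighbour Acot3.

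Acot1, the cytosolic member and the close copy of Acot2, varied widely between animals. Its level was 12.5, 52.9 and 18.9 CPM after sham surgery against 2.03, 9.52 and 4.05 CPM after VSG. The lowest sham value was above the highest VSG value, but the spread was wide: the log2 fold change of -2.42 had an SE of 0.72, and the gene was not called. Without sham replicate 2 the log2 fold change was -1.59. The gene was called without VSG replicate 5 (-3.22), and it was also called by DESeq2, with total-count scaling and without the filter on low counts.

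Acot6 and Acot5 complete the cluster. Acot6, a peroxisomal enzyme for branched-chain acyl-CoAs, had 115, 93 and 136 counts after sham surgery against 59, 64 and 53 counts after VSG, with a log2 fold change of -0.78 (SE 0.17). Its values were low but hardly varied within a group. Acot5, also peroxisomal, was close to absent from these livers: it had 1, 1 and 2 counts in the sham libraries and 0 in each VSG library. All of these are at or under the floor of 3 counts per library, so no fold is given and a difference was not detectable at this depth.

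Summed over Acot1 to Acot6, the cluster had 5254, 11812 and 8195 counts after sham surgery against 839, 1598 and 1001 counts after VSG. This sum does not depend on how reads are split among the 6 copies as long as each read is counted once. The log2 fold change of the sum was -2.76 (SE 0.42), or 6.78-fold lower. Without sham replicate 2 it was -2.30, and without sham replicate 1 it was -3.06.

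Among the type II enzymes the differences were smaller. Acot13, a small hotdog-fold enzyme found at mitochondria that acts on long-chain acyl-CoAs, had 44.6, 47.9 and 52.3 CPM after sham surgery against 17.2, 27.2 and 24.3 CPM after VSG. The groups stood well apart, with a log2 fold change of -1.07 (SE 0.18). Acot7, a cytosolic enzyme best known from brain, went from 13.9 ± 1.52 CPM to 8.22 ± 1.22 CPM, a log2 fold change of -0.75 (SE 0.15), without overlap between the groups.

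Acot12, a cytosolic enzyme that hydrolyses acetyl-CoA, and Acot8, a peroxisomal enzyme with a wide range of substrates, had the least separated groups. Acot12 was at 172.5, 242 and 201 CPM after sham surgery against 85.4, 171 and 130 CPM after VSG, so the lowest sham value was only 1.01 times the highest VSG value (fitted log2 fold change -0.67 with an SE of 0.26). Acot8 was at 11.1, 14.7 and 13.2 CPM after sham surgery against 6.96, 11.2 and 7.53 CPM after VSG (fitted log2 fold change -0.60 with an SE of 0.21). In both genes VSG replicate 5 reached the sham range or came next to it. Acot8 also shares 246 exonic bases with Snx21 on the opposite strand (999 counts in all), and whether counting used the strand is not given in the sources used here.

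Levels of different members were compared as FPKM, which also divides by exon length. In sham livers the order of the mean levels was Acot13 (64.9 FPKM), Acot12 (62.3), Acot4 (34.4), Acot3 (15.7), Acot2 (14.3), Acot1 (7.17), Acot7 (6.53), Acot8 (6.51), Acot6 (0.709) and Acot5 (0.0348). The lowest library of one member was above the highest library of the next only after Acot12, Acot8 and Acot6, so the neighbours from Acot4 to Acot8 overlapped. In VSG livers the order was Acot12 (39.0 FPKM), Acot13 (30.8), Acot4 (5.75), Acot8 (4.28), Acot7 (3.87), Acot2 (1.81), Acot1 (1.33), Acot6 (0.412), Acot3 (0.311) and Acot5 (0). Acot7 and Acot8 were below Acot2 in each sham library and above Acot1, Acot2 and Acot3 in each VSG library. Acot1 was above Acot7 and Acot8 in sham replicate 2 alone (13.5 FPKM, against 3.19 and 4.82 in sham replicates 1 and 3), and Acot3 was below both in sham replicate 1 (4.95 FPKM).

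The pool of thioesterase transcripts was smaller in VSG livers and had another make-up. The FPKM of the 10 members summed to 165, 264 and 208 in sham and 63.2, 112 and 88.0 in VSG livers. The chromosome 12 cluster held 24.8%, 42.3% and 31.0% of this sum after sham surgery against 11.3%, 11.7% and 9.85% after VSG. Acot12 held 31.8%, 27.8% and 29.3% in sham and 41.1%, 46.4% and 44.7% in VSG livers, although its own level was lower in VSG. The share of Acot13 overlapped between the groups, at 24.4% to 36.3% in sham and 32.8% to 37.0% in VSG livers. Acot3 went from 6.73% ± 4.32 (SD, n = 3) to 0.360% ± 0.0962 of the pool. These shares come from the same comparison as the family and are a description.

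**Figure D3:**
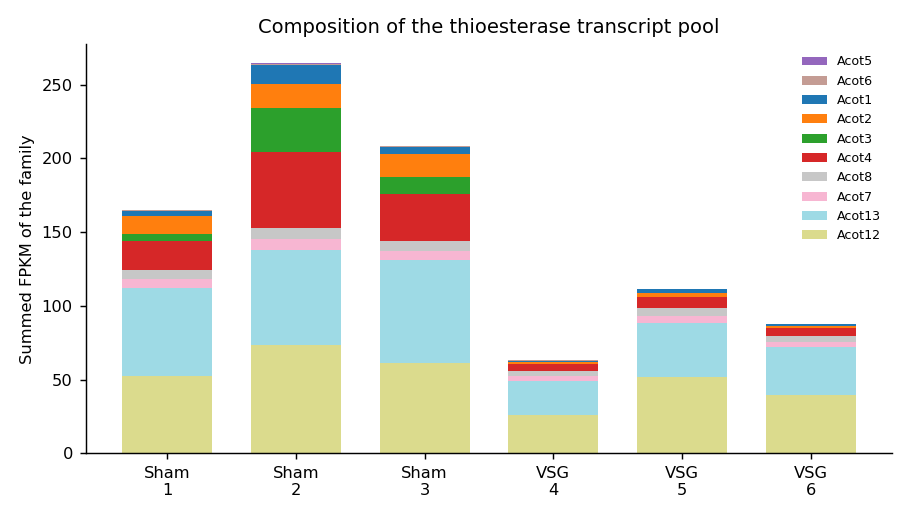
Stacked bars of the FPKM of each member in each library, starting at 0. The sham bars reach 165 to 264 FPKM and the VSG bars 63.2 to 112 FPKM. The cluster genes (Acot1 to Acot6) make up 24.8% to 42.3% of a sham bar and 9.85% to 11.7% of a VSG bar.

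Within each group, the same library tended to be highest or lowest in many members. Sham replicate 2 was the highest sham library in 7 of 9 fitted members (in 40.8% of all tested genes) and sham replicate 1 was the lowest in 8 of 9 (36.6% of all). VSG replicate 5 was the highest VSG library in 9 of 9 (36.0% of all), and VSG replicate 4 was the lowest in 6. Members of a pathway are not independent of each other, and each of these counts rests on single livers.

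The size of this spread differed between members. Sham replicate 2 was 3.59 times the mean of the other sham libraries in Acot3, 3.37 times in Acot1 and 1.98 times in Acot4. In Acot2, Acot6 and Acot13 the same ratio was 1.16, 0.903 and 0.990, near the median of 1.01 over all tested genes. VSG replicate 5 was 3.13 times the mean of the other VSG libraries in Acot1, 1.75 times in Acot3, 1.59 times in Acot12 and 1.53 times in Acot2, against 1.05 times in Acot6. Acot1 and Acot2, the closest copies by sequence, thus differed in how much their levels varied between animals of the same group.

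Markers of other cells moved with the operation too. The 10 neutrophil markers summed to 14.9, 2.69 and 4.97 CPM after sham surgery against 1821, 135 and 819 CPM after VSG, and 10 of 10 were called higher by edgeR (3 of 10 by limma-voom). The 8 Kupffer cell and macrophage markers summed to 345 to 729 CPM in sham and 742 to 2163 CPM in VSG livers, with 4 of 8 higher. Without sham replicate 2, edgeR called 1 neutrophil and 0 Kupffer cell markers, and without sham replicate 3 or VSG replicate 6 it called 0 of either list. In each of these 3 fits 10 of 10 and 5 of 8 were higher at an unadjusted p under 0.05. Without VSG replicate 4, 2 Kupffer cell markers were called. Of the 10 hepatocyte markers edgeR called 0 lower and 1 higher (1 lower at an unadjusted p under 0.05, and 1 lower by DESeq2). Among all tested genes edgeR called 7.87% lower and 6.79% higher, and DESeq2 called 12.3% and 10.5%. At an unadjusted p under 0.05 in edgeR, 17.0% were lower and 16.9% higher. None of the endothelial, T cell, B cell or erythroid markers was called by edgeR. In these 4 lists, 1 erythroid marker was higher at an unadjusted p under 0.05, and 1 erythroid marker was called by DESeq2. The 6 stellate cell markers summed to 588.5 to 889 CPM in sham and 280.1 to 549 CPM in VSG livers, with 1 of 6 called lower (5 by DESeq2). In edgeR 5 were lower at an unadjusted p under 0.05. Without sham replicate 1 or 3 or VSG replicate 6, 0 stellate markers were called. Without VSG replicate 4 it was 2, and without VSG replicate 5 it was 3. Of the 5 biliary markers 1 was higher, while the fitted values of 4 were below 0 (median log2 fold change -0.76). That call was lost in both limma fits, without sham replicate 1, 2 or 3 and without VSG replicate 6. VSG replicate 5, with the highest thioesterase values of its group, had the lowest neutrophil sum of its group, and VSG replicate 4 had the highest. In sham, replicate 2 had the lowest neutrophil and Kupffer cell sums (2.69 and 345 CPM) and replicate 1 the highest (14.9 and 729 CPM). The hepatocyte sum was 77900, 115400 and 79170 CPM in sham replicates 1, 2 and 3. It was 75250, 101400 and 103800 CPM in VSG replicates 4, 5 and 6. The part of these cells in the thioesterase values was not tested.

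**Figure D4:**
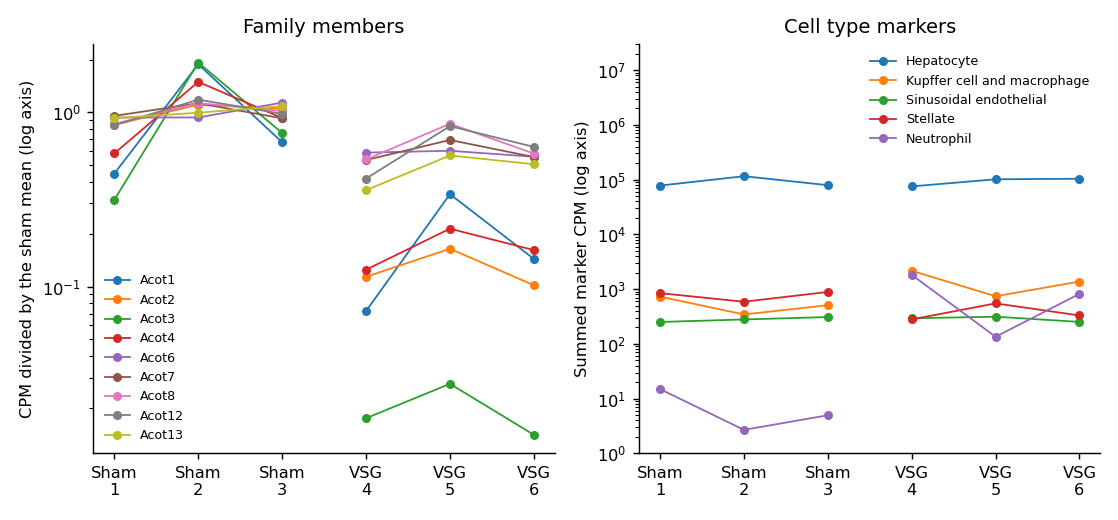
Left, CPM of 9 members in each library divided by the mean of the sham libraries (log axis). Right, summed CPM of marker genes of 5 cell types (log axis). Lines only join the points of a gene or list within a group, and the libraries have no order. VSG replicate 5 is the highest VSG library in 9 of 9 members, where the neutrophil sum is 135 CPM. In VSG replicates 4 and 6 that sum is 1821 and 819 CPM.

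Calls of members depended on single libraries. Without sham replicates 1, 2 and 3 the number of members called lower was 4, 4 and 1, beside 5.11%, 3.31% and 0.748% of all tested genes. Without VSG replicates 4, 5 and 6 it was 4, 9 and 1, beside 3.95%, 9.59% and 0.812%. Acot3, Acot4 and Acot13 lost their call without sham replicate 3 (log2 fold change -5.81, -2.64 and -1.02) or without VSG replicate 6 (-5.46, -2.56 and -1.12). Acot6 and Acot7 kept theirs only without VSG replicate 5 (-0.83 and -0.90), with log2 fold changes from -0.84 to -0.69 and from -0.82 to -0.66 in the 5 fits that lost it. Leaving out VSG replicate 5 was also the fit in which Acot1 (-3.22), Acot8 (-0.86) and Acot12 (-0.95) gained one. All 9 log2 fold changes were negative in each of these 6 fits.

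The 7 related lists below were chosen with earlier results of these data known, so their calls describe these libraries. Genes named from them were mostly picked for their calls and fold changes. For the other thioesterases the share of calls was near that of all genes. This list held 14 genes: the remaining Acot genes, the Them genes, and the bile acid conjugating enzyme Baat and its relatives. It also held protein and lysophospholipid thioesterases, Olah and Hibch. Of the 14, 11 were tested, 0 were lower and 1 was higher with edgeR, beside 7.87% lower and 6.79% higher of all tested genes. The median log2 fold change was -0.14. At an unadjusted p under 0.05, 2 were lower and 2 higher (17.0% and 16.9% of all tested genes), and DESeq2 with adjustment called 1 lower and 1 higher (12.3% and 10.5% of all). Acot9, a mitochondrial enzyme, had a log2 fold change of -0.55 (SE 0.29, adjusted p = 0.231), and Acot11, linked to brown fat, had -0.65 (SE 0.31, adjusted p = 0.191). Both had sham and VSG values that overlapped. Acot10 had 2, 0 and 1 counts after sham surgery against 1, 1 and 2 counts after VSG, at or under the floor. The gene that rose was Acnat2, a relative of Baat and of the type I thioesterases, from 58.1 ± 11.0 CPM to 94.9 ± 15.8 CPM (adjusted p = 0.0436 for a log2 fold change of 0.71 with an SE of 0.18), a call that held only without VSG replicate 5 when 1 library was left out (log2 fold change 0.75).

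The acyl-CoA synthetases run the opposite reaction. Of 22 genes, 18 were tested, 3 were lower and 1 was higher with edgeR (7.87% and 6.79% of all tested genes), with a median log2 fold change of -0.44. At an unadjusted p under 0.05, 7 were lower and 1 higher (17.0% and 16.9% of all tested genes), and DESeq2 called 6 lower and 1 higher, beside 12.3% lower and 10.5% higher of all genes it tested. Acss3, a mitochondrial synthetase for short-chain acids such as propionate, fell from 87.2 ± 29.2 CPM to 9.38 ± 4.50 CPM (adjusted p = 0.00836 for a log2 fold change of -3.21 with an SE of 0.39). Its call was lost only without VSG replicate 6 (log2 fold change -3.01, adjusted p = 0.0506). Acsf3, the malonyl-CoA synthetase of mitochondria, fell by 0.91 on the log2 scale (adjusted p = 0.0191), and Slc27a4, a fatty acid transport protein with synthetase activity, fell by 0.61 (adjusted p = 0.0350). Both calls were lost without sham replicate 2 or 3 or VSG replicate 6, that of Slc27a4 also without sham replicate 1 or VSG replicate 4 (log2 fold changes from -1.05 to -0.82 for Acsf3 and from -0.71 to -0.50 for Slc27a4 over the 6 fits). The gene that rose was Acsm2, a medium-chain synthetase at a very low level (0.162 CPM after sham surgery against 1.04 CPM after VSG), which was named after its values were seen. It had 1, 4 and 7 counts after sham surgery against 22, 32 and 16 after VSG, so sham replicate 1 was under the floor. Its call was lost without sham replicate 2 or 3 or VSG replicate 4 or 6, and limma on log2(FPKM + 1) called 0 synthetases higher (1 at an unadjusted p under 0.05). Acsl1, the main long-chain synthetase of liver, also named after its values were seen, was at 1703 ± 793.7 CPM after sham surgery against 959 ± 592.6 CPM after VSG and was not called (adjusted p = 0.312).

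Genes that use acyl-CoA inside organelles were lower or not called. Of 20 tested peroxisomal genes 5 were lower and 0 higher (median log2 fold change -0.46), and of 17 mitochondrial genes 5 were lower and 0 higher (median -0.60), beside 7.87% called lower among all tested genes. All 17 fitted values of the mitochondrial list were below 0, beside 47.6% of all tested genes. At an unadjusted p under 0.05 in edgeR, 9 peroxisomal and 12 mitochondrial genes were lower and 0 higher, beside 17.0% and 16.9% of all tested genes. DESeq2 called 8 and 10 lower after adjustment and 0 higher, beside 12.3% and 10.5%. Pex11a, which drives the division of peroxisomes, fell from 284 ± 106.7 CPM to 59.4 ± 11.5 CPM (adjusted p = 0.0115 for a log2 fold change of -2.26 with an SE of 0.32). Acaa1b, a peroxisomal thiolase, fell by 2.01 on the log2 scale (adjusted p = 0.0200) and Abcd2, a peroxisomal importer of very long-chain acyl-CoA, fell by 1.42 (adjusted p = 0.0150). In mitochondria, Eci1 and Hadh, a pair of beta-oxidation enzymes, fell by 1.23 and 1.14 (adjusted p = 0.0434 and 0.0301), and Cpt1a, the gate for fatty acid entry, fell by 0.93 (adjusted p = 0.0356). Of 13 tested genes of coenzyme A synthesis and breakdown, 1 was lower and 0 higher with edgeR, a share near the 7.87% lower of all tested genes. At an unadjusted p under 0.05, 4 were lower and 1 higher (17.0% and 16.9% of all tested genes), and DESeq2 called 3 lower and 1 higher (12.3% and 10.5% of all). The gene edgeR called was Coasy, which makes coenzyme A in its last steps (adjusted p = 0.0249 for a log2 fold change of -0.71 with an SE of 0.14). Without sham replicate 3, and likewise without VSG replicate 6, edgeR called 0 of the genes in these 3 lists, although 17 and 18 of them were lower and 0 higher at an unadjusted p under 0.05. The mitochondrial list and the coenzyme A list also had 0 calls without sham replicate 2 and without VSG replicate 4. When 1 library was left out, Eci1 and Cpt1a were called only without VSG replicate 5 (log2 fold changes -1.59 and -1.10), and Hadh and Coasy only without sham replicate 1 (-1.30 and -0.78) or VSG replicate 5 (-1.31 and -0.86). Acaa1b also lost its call without sham replicate 2 (-2.03).

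Of 23 known target genes of PPARα, 9 were lower and 0 higher with edgeR (7.87% lower of all tested genes), and the median log2 fold change was -0.91, beside 0.03 for all tested genes. Without adjustment, at a p under 0.05, 15 were lower and 0 higher (17.0% and 16.9% of all tested genes), and DESeq2 called 14 lower and 0 higher (12.3% and 10.5% of all). The list is not separate from the others: 9 of its 23 genes also stand in the peroxisomal, mitochondrial or coenzyme A lists, Pex11a, Acaa1b, Cpt1a and Cpt2 among them. Cidec, a lipid droplet protein, fell from 90.8 ± 30.0 CPM to 1.01 ± 0.579 CPM (adjusted p = 0.00177 for a log2 fold change of -6.47 with an SE of 0.44). Aldh3a2, a fatty aldehyde dehydrogenase, fell by 2.74 on the log2 scale (adjusted p = 0.0102) and Pdk4, a kinase that holds back glucose oxidation, fell by 2.28 (adjusted p = 0.0142). Cyp4a14, a fatty acid omega-hydroxylase and a classic target, was named after its values were seen: it was at 506, 2479 and 896 CPM after sham surgery against 33.5, 1437 and 213 CPM after VSG and was not called (adjusted p = 0.512). Within groups, the libraries that stood high or low in the family often did so in this list and in some other lists. Sham replicate 2 was the highest sham library in 16 of 23 genes and sham replicate 1 the lowest in 19, and VSG replicate 5 was the highest VSG library in 18 and VSG replicate 4 the lowest in 19 (40.8%, 36.6%, 36.0% and 36.1% of all tested genes). The same 4 counts were 15, 17, 17 and 16 of 17 mitochondrial genes and 15, 16, 16 and 16 of 20 peroxisomal genes. They were 12, 14, 14 and 9 of 18 synthetases, but 7, 7, 2 and 6 of 11 other thioesterases. Without sham replicate 3 or without VSG replicate 6, 3 genes of the list were called in each case. Cidec was among them, and Aldh3a2 and Pdk4 were not (log2 fold changes from -3.09 to -2.45 and from -2.52 to -1.84 over the 6 fits).

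Among 13 nuclear receptors and cofactors, 2 were lower and 0 higher with edgeR, beside 7.87% lower of all tested genes, and the median log2 fold change was 0.00. Without adjustment, at a p under 0.05, 3 were lower and 0 higher (17.0% and 16.9% of all tested genes), and DESeq2 called 3 lower and 0 higher, beside 12.3% lower of all genes it tested. Ppara itself was at 188, 285 and 276 CPM after sham surgery against 68.8, 195 and 179 CPM after VSG, with overlapping groups (adjusted p = 0.217 for a log2 fold change of -0.76 with an SE of 0.39). Pparg, the receptor that drives fat storage, fell from 29.0 ± 1.51 CPM to 12.4 ± 1.87 CPM (adjusted p = 0.00692 for a log2 fold change of -1.23 with an SE of 0.13) and was still called after leaving out any 1 library. Ppargc1a, a coactivator of oxidative genes, fell by 0.79 (adjusted p = 0.0371), a call that was lost without sham replicate 2 or 3 and without VSG replicate 4 or 6 (log2 fold changes -0.65, -0.79, -0.66 and -0.88).

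**Figure D5:**
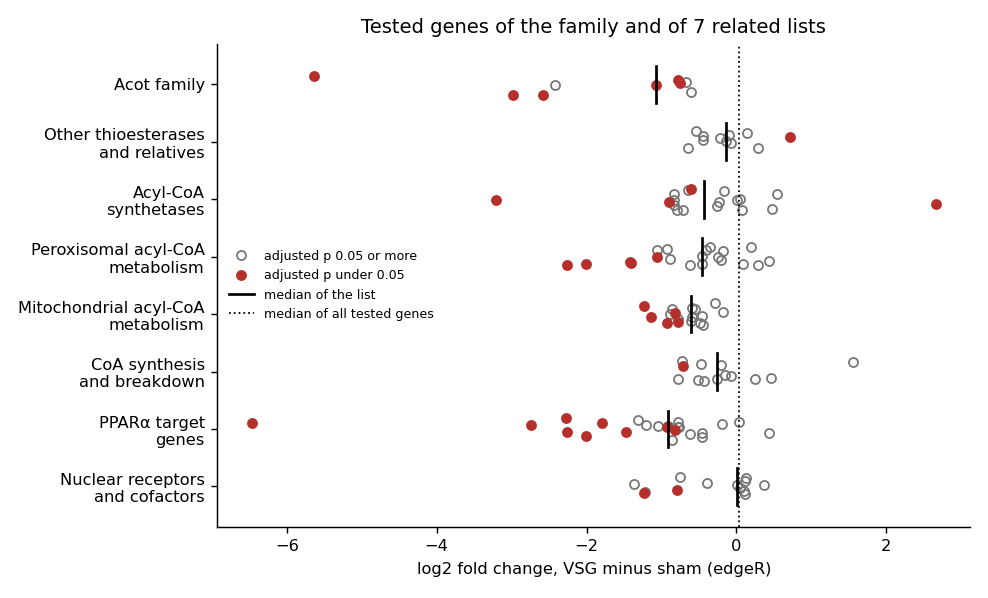
Log2 fold change (VSG minus sham) of each tested gene of the family and of 7 related lists. Filled red points had an adjusted p under 0.05, open points did not, black bars mark the median of a list, and the dotted line marks the median of all tested genes at 0.03. The medians are -1.07 for the family, -0.91 for PPARα targets and -0.14 for other thioesterases. For the family, the points are a description of the values by which it was chosen. The 7 related lists were also chosen with earlier results of these data known.

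Which other genes had a profile most like a member was measured among 9956 genes with a mean of at least 5 CPM. The measure was the Euclidean distance between centred log2 CPM values over the 6 libraries, with 0.5 CPM added before the log. It uses the same contrast as the family and is a description. Closest to Acot4 was Clstn3 (distance 0.162), at 20.5, 51.6 and 35.3 CPM after sham surgery against 4.52, 7.13 and 5.62 CPM after VSG, followed by Erbb4 (0.350) and Tpm2 (0.497). Closest to Acot1 was G6pc (0.456), which encodes the last enzyme of glucose production, at 174, 495 and 227 CPM after sham surgery against 23.4, 117 and 48.8 CPM after VSG. Cyp8b1 (0.794) and Esrrg (0.881) came next. Closest to Acot2 were Mgst3 (0.450), Pnldc1 (0.533) and Mme (0.574). For Acot3 the closest gene, Rgs16, was farther away at 1.20. It was at 96.7, 426 and 203 CPM after sham surgery against 3.07, 13.2 and 3.62 CPM after VSG. Cyp2b13 (1.27), with 0 CPM in each VSG library, and Thrsp (1.34) followed. The distance is not scaled for the size of the VSG-sham difference, which was the largest of the family in Acot3. None of the 12 genes named by this measure is another copy of the family, since members were left out of the search.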

How the data were processed

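Poly(A)-selected liver RNA was sequenced from 3 sham-operated and 3 VSG-operated mice. Raw counts of reads in each gene were deposited, which the authors made, per the submitters' processing notes, with FastQC 0.10.1, STAR 2.6.0 and featureCounts 2.0.3 against mm10. The methods of the study name another version of featureCounts. Which annotation release, strand option and handling of multi-mapping or overlapping reads were used is not given in the sources used here. The exon length column of the same table entered only FPKM. Symbols came from GENCODE M21, which matched 55144 of 55385 genes by identifier without version.

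The test was that of edgeR 4.0.16 (R 4.3.3): filterByExpr (minimum count 10, minimum total 15; 14454 genes kept), TMM factors (0.897 to 1.15), glmQLFit and glmQLFTest with group as the only term, and Benjamini-Hochberg adjustment over all genes tested. Where the text gives an adjusted p with no tool, it is from edgeR. CPM and FPKM use TMM-scaled library sizes, and values are mean ± SD over 3 libraries. The script was tested on simulated data. A count of 3 or fewer per library (0.124 to 0.132 CPM of the raw totals) was taken as the floor, which covers counting error only. Replicate libraries differed by more than counting noise (chi-square per degree of freedom of at least 27.5). With 3 libraries against 3, p-values measure the spread between these animals only.

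Alternatives were RLE size factors, total-count scaling, DESeq2 1.42.0, limma-voom and limma 3.58.1 on log2(FPKM + 1), 2 other filters (1 count in total, or 10 in each library), a larger prior count (2), and fits that left out 1 library at a time. The members, the related gene lists and the rule for named genes were chosen with earlier results of these data known. The rule took all 10 members, at most the 3 genes of each related list with the largest absolute log2 fold change among those with an adjusted p under 0.05 and a mean of at least 1 CPM, Ppara, Acot9, Acot10 and Acot11, and the 3 genes most like each of Acot1 to Acot4. Coding sequences from GENCODE were aligned with MAFFT 7.526. Motifs were counted in RefSeq promoter entries of GRCm38.p6, 250 bases before each start.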

Additional observations from a re-analysis of the deposited data

How the results depend on the processing

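No paired analysis was possible because the sample numbers (1 to 3 in sham, 4 to 6 in VSG) are not shared between the groups. The 9 fitted members kept a negative log2 fold change under all 14 alternatives, and 6 or 7 of them were called under the 8 that kept every library (main value 6), beside 8.38% to 22.8% of all genes tested. When 1 library was left out, members called ran from 1 to 9, all genes called from 159 to 2732 (main value 2118), and the log2 fold change of the summed cluster from -3.06 to -2.30, not called without sham replicate 3 or VSG replicate 6. The genes called in the related lists together ran from 4 to 33 (main value 23): 0 to 1 for other thioesterases, 0 to 6 for synthetases, 0 to 8 for peroxisomal genes, 0 to 7 for mitochondrial genes, 0 to 2 for coenzyme A metabolism, 3 to 12 for PPARα targets and 1 to 3 for nuclear receptors. DESeq2 called 3288 genes, 41 of them in the related lists (2, 7, 8, 10 and 4 in the first 5 lists and 14 PPARα targets), beside 2118 and 23. Scaling to total counts called 39 list genes (3, 8, 8, 10 and 2 in the first 5 lists), moved the median log2 fold change of all genes by -0.14, and split the calls 1513 lower and 486 higher, beside 1137 and 981. Limma on log2(FPKM + 1) called 0 of the other thioesterases. The causes of these changes were not tested, and the fits that left 1 library out also had fewer libraries. On the log2(FPKM + 1) scale low genes are understated, as in Acot6 (-0.27 against -0.78). Counted with words of 100 bases in place of 50, the share of exon sequence unique within the family was 87.7% in Acot1, 82.9% in Acot2 and 92.2% in Acot5. Depth limits Acot5 and Acot10, which had at most 2 counts in a library.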
